A study of Mus musculus with 22 samples.

Results

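The insulin-like growth factor (IGF) genes described here are 9 rows of the gene table, out of 57010: the ligands Igf1 and Igf2, the receptor Igf1r and the binding proteins Igfbp2, Igfbp3, Igfbp4, Igfbp5, Igfbp6 and Igfbp7. They were taken by gene symbol, as a family, and not by a cut on any measured value, but with earlier results of these data known. Each of the 22 libraries held polyadenylated RNA from the pancreatic islets of 1 male mouse, isolated at 5.5 weeks of age per the series design. The mice were wild type at Mafa (WT) or heterozygous for the S64F allele of MafA (Het), a substitution in a factor that drives insulin gene transcription in beta cells, on a background named C57 or on one named Mixed, whose strains the labels do not give. The C57 background had 5 WT and 6 Het mice, and the Mixed background had the same numbers. How the allele was made is not given in the labels, and every cell of an islet preparation contributed RNA.

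IGF1 and IGF2 are secreted peptides related to insulin that signal mainly through the IGF1 receptor, a tyrosine kinase that feeds into the phosphatidylinositol 3-kinase and AKT pathway. The IGF binding proteins hold the peptides in the extracellular space and limit or prolong their access to the receptor, and proteases release the peptides by cutting the binding proteins. IGFBP7 binds the peptides more weakly than the other members and is known as a secreted protein of vessels and matrix. In islets, IGF1 receptor signalling in beta cells is known for its part in glucose-stimulated insulin secretion, while the ligands in adult tissue come largely from stromal, immune or liver cells.

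Values are in TPM, a unit that divides by transcript length and scales each library to the same total, so levels of different genes can be set side by side. Differences were tested with limma on log2(TPM + 1), a scale that understates the change of low genes, and a difference was called at an adjusted p under 0.05 over 16756 gene rows. Mafa, the mutated gene, was measured at 441 ± 87.6 TPM (SD, n = 5) in C57 WT and 117 ± 23.2 (n = 6) in C57 Het, and in Mixed at 598 ± 143 (n = 5) for WT and 152 ± 37.1 (n = 6) for Het, with no Het library reaching any WT library of its background. The 7 beta cell markers summed to between 247753 and 475289 TPM in a library. Many genes changed with genotype: 38.0% of those tested were called in C57 and 44.1% in Mixed, against 7.36% for the interaction of genotype and background, 11.3% for Mixed against C57 in WT and 20.5% for Mixed against C57 in Het. Calls were 4422 higher and 1940 lower in C57, and 5137 higher and 2258 lower in Mixed. Scaled by median of ratios they were 3293 higher and 3300 lower, and 3663 higher and 3751 lower. The median difference of all genes moved from 0.10 to -0.01 in Mixed with that scaling, and from 0.08 to -0.01 in C57. The same scaling turned the interaction calls from 774 higher and 459 lower to 778 and 973, and those of Mixed against C57 in Het from 2234 and 1194 to 2101 and 1868. Quantile normalization turned Mixed against C57 in WT from 1056 and 836 to 1187 and 1434. Sums of the alpha cell markers ran from 19102 to 57520.2 TPM in the WT and 71476 to 117520 in the Het mice of C57, and from 15859 to 27618 and 65502 to 107360 in those of Mixed. Their part in any result below was not tested.

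The stretches of DNA before the start sites of Igfbp7 and Igf1r are printed because Igfbp7 was the member called in the interaction and Igf1r the member called lower on both backgrounds. They are the 250 bases before the RefSeq start, from the GRCm38.p6 build, 5′ to 3′ on the strand of the gene. Igfbp7 lies on the minus strand (chr5:77408046-77408295) and Igf1r on the plus strand (chr7:67952007-67952256). Capitals mark a match to TGCTGA on either strand, the core of the element that MAF proteins are known to bind.
Igfbp7: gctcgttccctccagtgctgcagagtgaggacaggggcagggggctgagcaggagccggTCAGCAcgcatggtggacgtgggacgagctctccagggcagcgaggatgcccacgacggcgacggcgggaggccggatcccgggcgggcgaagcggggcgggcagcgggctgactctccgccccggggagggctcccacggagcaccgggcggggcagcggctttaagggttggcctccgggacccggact
Igf1r: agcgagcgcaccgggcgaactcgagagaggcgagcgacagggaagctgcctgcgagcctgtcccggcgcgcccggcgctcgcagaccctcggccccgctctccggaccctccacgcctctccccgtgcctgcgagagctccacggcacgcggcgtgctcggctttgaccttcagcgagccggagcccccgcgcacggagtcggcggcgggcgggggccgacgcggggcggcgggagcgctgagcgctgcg
The Igfbp7 stretch held 1 match, read on the opposite strand and 191 bases before the start, and the letter beside it extends the match to TGCTGAC. The Igf1r stretch held none. All 9 genes had such a window in RefSeq, 13 windows in all, and the other match was in 1 of the 4 windows of Igf2. Among all 32851 windows of this length, 16.1% held TGCTGA and 3.81% held TGCTGAC on either strand. The longer motif contains the shorter one, and a match is a description of the letters only. GC content was 74% before Igfbp7 and 77.6% before Igf1r, with 26 and 42 CG dinucleotides.

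Of the 9 genes, Igfbp7 had by far the highest level, with a mean of 547 TPM over the 22 mice and a range of 384 to 804. Igfbp3 followed at 84.1 TPM (55.4 to 146), then Igf1r at 14.3 (8.12 to 21.0), Igfbp5 at 12.5 (6.80 to 33.8) and Igfbp4 at 7.30 (3.42 to 24.1). Igfbp6 averaged 2.80 TPM, Igf1 0.755 and Igf2 0.278. Igfbp2, a major circulating binding protein, was close to absent, at no more than 0.157 TPM in any library. The ranges of Igfbp7 and Igfbp3 overlapped neither each other nor that of any gene below them, while each of the pairs Igf1r and Igfbp5, Igfbp5 and Igfbp4, and Igf1 and Igf2 overlapped. Igfbp7 made up 83.6% ± 2.35 (SD, n = 22) of the summed TPM of the 6 binding proteins and Igfbp3 13.1% ± 2.69. The group means of the Igfbp7 share ran from 81.5% in C57 WT to 84.9% in Mixed Het. The sum itself was 667 ± 176 TPM in C57 WT, 606 ± 71.7 in C57 Het, 523 ± 49.0 in Mixed WT and 799 ± 135 in Mixed Het. Igf1 and Igf2 are low in these data beside Igf1r: in every group the mean of the receptor transcript was above those of both ligands.

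**Figure D1:**
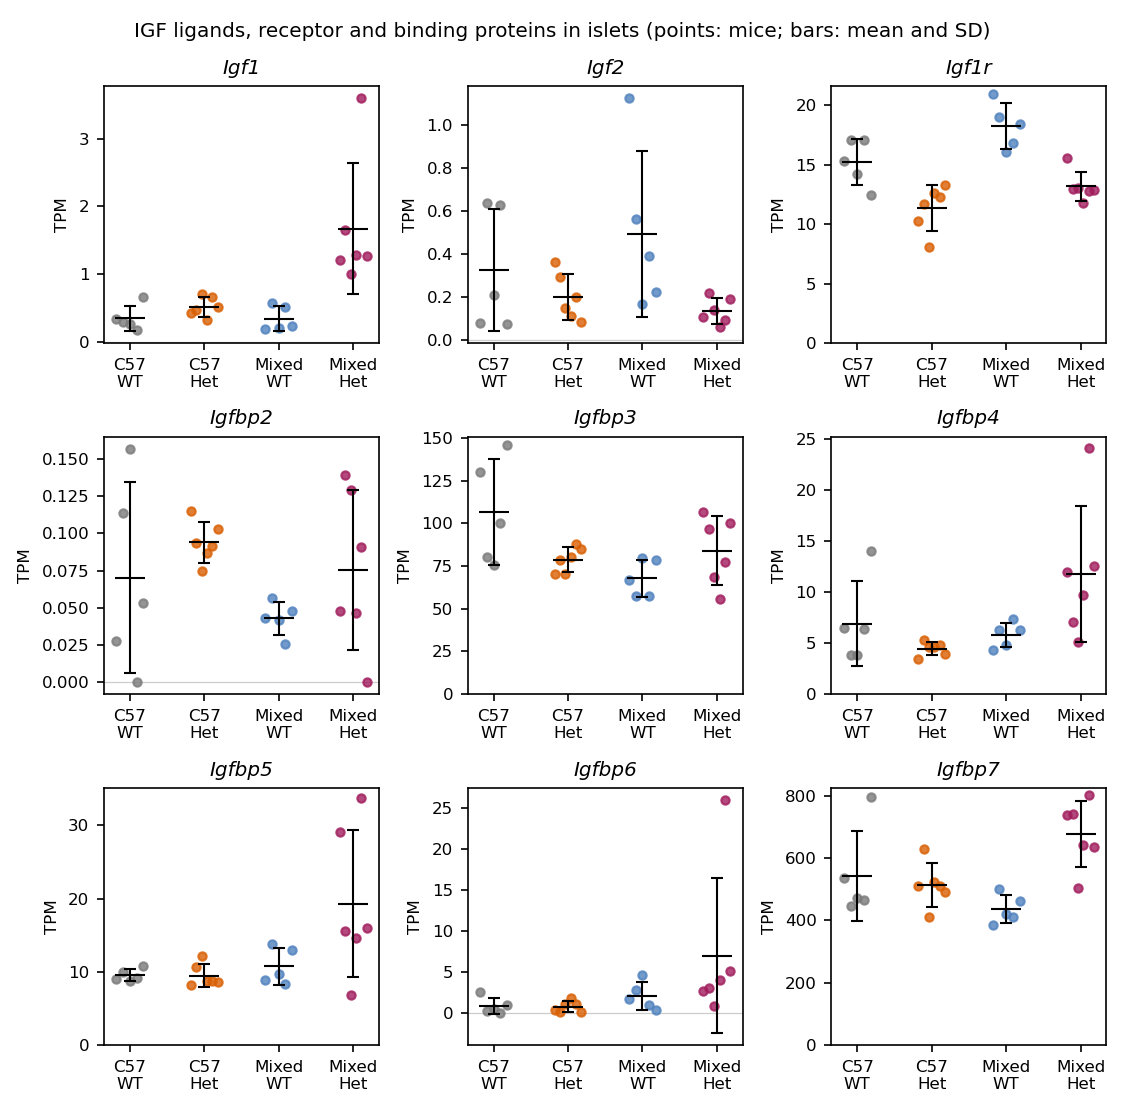
TPM of each IGF gene (y axis, linear, 1 panel per gene with its own scale) in each of the 22 mice by group (x axis). Points are mice and bars give the mean and SD; the Mixed Het mice lie above all Mixed WT mice for Igf1 and Igfbp7 and below them for Igf1r.

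With the heterozygous S64F allele, 1 of the 9 genes was called on the C57 background (Igf1r, lower) and 5 on the Mixed background (Igf1, Igfbp4, Igfbp5 and Igfbp7 higher, Igf1r lower), where 38.0% and 44.1% of all genes tested were called. Igf2 and Igfbp2 did not reach the filter of 1 TPM in 5 libraries and were not tested. The median difference of the 7 tested genes was -0.06 in C57 and 0.66 in Mixed, beside 0.08 and 0.10 over all genes. Of the 7, Igf1 passed the filter only through Mixed Het and so had to differ there, which the median and the count include and which is read here from its levels and from a fit without the filter. For the interaction 1 of the 9 was called (Igfbp7), beside 7.36% of all genes.

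**Figure D2:**
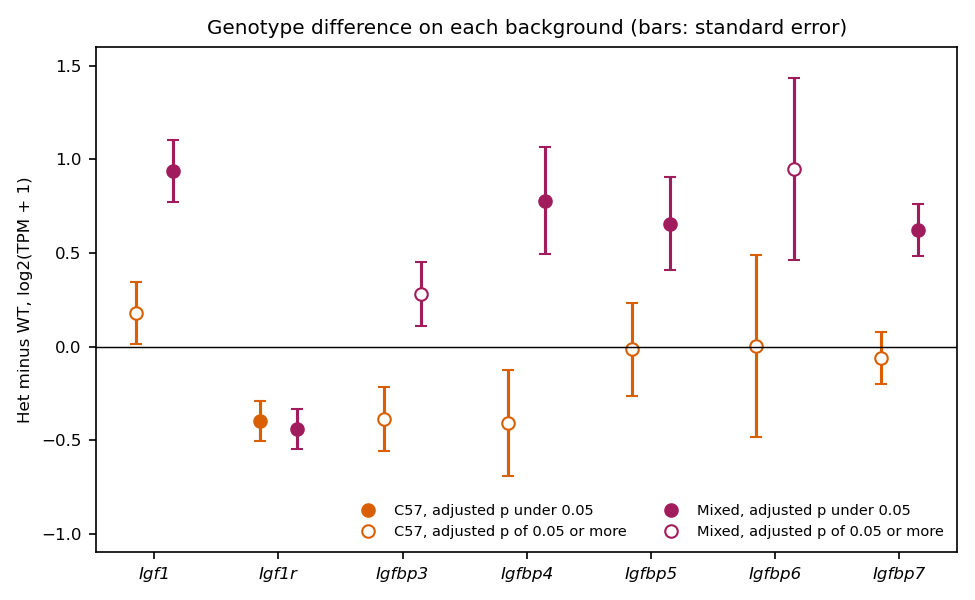
Difference of Het from WT on log2(TPM + 1) (y axis) for the 7 tested IGF genes (x axis) on the C57 and Mixed backgrounds. Points are limma estimates, bars their standard errors and filled points those with an adjusted p under 0.05; Igf1r is lower on both, and the other filled points are all in Mixed and above 0. The Igf1 point in Mixed had to differ, since Igf1 passed the filter only through Mixed Het.

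Igf1 (ENSMUSG00000020053), the ligand that circulates mainly from the liver and is also made locally by stromal and myeloid cells, was at 0.346, 0.288, 0.268, 0.174 and 0.660 TPM in the 5 C57 WT mice. In the 6 C57 Het mice it ran from 0.328 to 0.702 with a median of 0.494, and the groups overlapped. The 5 Mixed WT mice had 0.188, 0.582, 0.200, 0.514 and 0.241 TPM. In Mixed Het it ran from 0.996 to 3.60 with a median of 1.28, so that every Mixed Het mouse lay above every other mouse in the study. Igf1 thus stood at 1.67 ± 0.970 TPM (SD, n = 6) in Mixed Het against 0.345 ± 0.188 (n = 5) in Mixed WT, a difference of 0.94 on log2(TPM + 1), or 1.96 with a pseudocount of 0.1 in place of 1. It reached 1 TPM in 5 libraries, all of them Mixed Het, so a test among the genes that passed the filter says nothing about it. In the fit without the filter, over 37378 rows, the Mixed difference had a limma adjusted p of 0.000261, and the C57 difference was 0.18 (limma adjusted p = 0.55). The difference between backgrounds was 0.76 in that fit and was not called (limma adjusted p = 0.0922). Between Het mice, Mixed was above C57 by 0.76 (limma adjusted p = 0.00378). With the score of the immune markers as a covariate the Mixed genotype difference was 0.40, the smallest of 12 other settings. Its 3 nearest genes by correlation of deviations from the group means over the 22 mice were Tgm2 (r = 0.85), Col6a2 (r = 0.85) and Car4 (r = 0.83).

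Igf2 (ENSMUSG00000048583), the imprinted fetal growth factor, was at 0.0804, 0.638, 0.210, 0.626 and 0.0773 TPM in C57 WT and ran from 0.0864 to 0.365 in C57 Het with a median of 0.175. It was at 1.12, 0.560, 0.170, 0.391 and 0.224 TPM in Mixed WT and ran from 0.0605 to 0.218 in Mixed Het with a median of 0.124. The groups overlapped on each background, with 4 of the 6 Mixed Het mice below all Mixed WT mice. In a fit without the filter, over 37378 rows, the Mixed difference was -0.36 (SE 0.13, limma adjusted p = 0.0594) and the C57 difference -0.12 (SE 0.13, limma adjusted p = 0.641). The gene overlaps Gm49394 on the same strand in the GENCODE annotation of GRCm38, so reads could be split between them and the Igf2 value is uncertain. Gm49394 averaged 0.149 TPM in the WT mice and 0.0878 in the Het mice of C57, and 0.322 and 0.0835 in those of Mixed.

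Igf1r (ENSMUSG00000005533), the receptor, fell with the allele on both backgrounds. It was at 15.4, 17.1, 14.2, 17.1 and 12.5 TPM in C57 WT and ran from 8.12 to 13.3 in C57 Het with a median of 12.0. These groups overlapped through 1 WT mouse, replicate 5, and 4 of the 6 Het mice lay below all WT mice. It was at 21.0, 18.996, 16.1, 16.8 and 18.4 TPM in Mixed WT and ran from 11.8 to 15.5 in Mixed Het with a median of 12.9, and the groups were separate. Means were 15.2 ± 1.96 (SD, n = 5) and 11.4 ± 1.91 (n = 6) in C57, and 18.3 ± 1.93 (n = 5) and 13.2 ± 1.25 (n = 6) in Mixed. The log2 difference was -0.40 in C57 (standard error (SE) 0.11, limma adjusted p = 0.00608) and -0.44 in Mixed (SE 0.11, limma adjusted p = 0.00234). The difference between the backgrounds was -0.04 with an SE of 0.15 (limma adjusted p = 0.891), so an unequal fall was not detected, which does not show that the falls were equal. Igf1r kept its call in C57 in all 13 other settings tried (pseudocount, filter, scaling, samples in the fit, covariates, weights and left-out libraries) and in all 22 fits without 1 mouse. In Mixed it kept it in 12 of 13 settings and all 22 such fits. The exception was the fit with the immune score as a covariate (-0.33, limma adjusted p = 0.208). The 7 beta cell markers summed to 368405 to 448190 TPM in the WT and 321729 to 376027 in the Het mice of C57, and to 398502 to 475289 and 247753 to 339599 in those of Mixed, where the groups were separate. Of these 7, 1 was called lower in C57 and 5 in Mixed, beside 11.6% and 13.5% of all genes tested. Most of each sum came from the insulin genes, with C57 WT means of 132855 TPM for Ins1 and 260458 for Ins2. The difference of Iapp was 0.26 in Mixed and -0.03 in C57, and that of Slc2a2 was 0.09 in C57, none of them called. The sums thus mainly follow insulin transcripts, and the part of these markers in the fall of Igf1r was not tested. Closest to it by the same measure were Elavl1 (r = 0.91), an RNA-binding protein, Tnpo3 (r = 0.88), a nuclear import receptor, and Mybbp1a (r = 0.86). None of these 3 belongs to the marker lists.

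Igfbp7 (ENSMUSG00000036256), the most abundant member, rose with the allele in Mixed and showed no detected change in C57. It was at 537, 448, 472, 467 and 795 TPM in C57 WT and ran from 412 to 629.9 in C57 Het with a median of 509, and the groups overlapped. It was at 384, 502, 421, 412 and 463 TPM in Mixed WT and ran from 504 to 804 in Mixed Het with a median of 689. The lowest Mixed Het mouse, at 504, stood just above the highest Mixed WT mouse, at 502, so the groups were separate by a small margin. Means were 544 ± 144 (SD, n = 5) and 513 ± 69.9 (n = 6) in C57, and 436 ± 46.3 (n = 5) and 677 ± 107 (n = 6) in Mixed. The log2 difference was 0.62 in Mixed (SE 0.14, limma adjusted p = 0.000999) and -0.06 in C57 (SE 0.14, limma adjusted p = 0.761). The interaction was 0.68 (SE 0.19, limma adjusted p = 0.0367), but it missed the threshold in 5 of 12 other settings and in 12 of 22 fits without 1 mouse, with adjusted p up to 0.0674 in the latter. Those 12 fits left out C57 WT replicate 1 or 5, C57 Het replicate 1, 3, 4, 5 or 6, Mixed WT replicate 1, 3 or 4, or Mixed Het replicate 2 or 5. Without C57 WT replicate 5, the highest mouse of its group, it was 0.54 (limma adjusted p = 0.0578). With the mesenchymal score as a covariate the Mixed difference was 0.26 (limma adjusted p = 0.133), the 1 of 13 other settings in which the Mixed call was lost. Between Het mice Igfbp7 was higher in Mixed by 0.40 (SE 0.13, limma adjusted p = 0.036). This call was lost in 8 of 13 other settings, with values down to 0.007 and limma adjusted p up to 0.992. All 3 rescalings (median of ratios, quantile normalization and a total without the most abundant genes) lost it, from 0.30 to 0.37. So did the mesenchymal and the immune score as covariates. It was also lost without C57 Het replicate 1, 3, 4, 5 or 6 or Mixed Het replicate 1, 2 or 5. The 3 genes closest to it were Fez2 (r = 0.93), Myct1 (r = 0.91) and Wwtr1 (r = 0.90), the last a coactivator of the Hippo pathway.

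Igfbp3 (ENSMUSG00000020427), the main carrier of IGFs in serum and the member ranked after Igfbp7 here, went with background in WT mice. It was at 130.4, 80.1, 75.4, 100.4 and 146 TPM in C57 WT and ran from 70.6 to 87.7 in C57 Het with a median of 79.4. It was at 66.5, 57.4, 79.7, 57.6 and 78.4 TPM in Mixed WT and ran from 55.4 to 107 in Mixed Het with a median of 87.0. The groups overlapped in every comparison. Mixed WT (67.9 ± 10.8, SD, n = 5) was below C57 WT (106 ± 31.0, n = 5) by 0.61 on the log2 scale, written -0.61 as Mixed minus C57 (SE 0.18, limma adjusted p = 0.0301). Without C57 WT replicate 5 that difference was -0.48 (limma adjusted p = 0.091), without replicate 1 it was -0.52 (limma adjusted p = 0.0832), and it also missed the threshold without Mixed WT replicate 1, 2 or 4. The genotype difference was -0.39 in C57 (SE 0.17, limma adjusted p = 0.0772) and 0.28 in Mixed (SE 0.17, limma adjusted p = 0.188), and the interaction was 0.67 (SE 0.24, limma adjusted p = 0.0886), passing the threshold without C57 WT replicate 2 (0.76) or Mixed Het replicate 4 (0.78). The C57 difference passed the threshold under all 3 rescalings (-0.50, limma adjusted p from 0.0269 to 0.0284) and without C57 WT replicate 2 or 3 (-0.48 and -0.50), and was -0.11 with the endothelial score as a covariate (limma adjusted p = 0.66). The value of -0.11 was the smallest in size of 13 other settings. The nearest genes were Notch4 (r = 0.84), Nos3 (r = 0.77) and Kdr (r = 0.77), all known from endothelium, and Kdr is in the endothelial marker list.

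Igfbp4 (ENSMUSG00000017493), a binding protein cut by the pappalysin of the gene Pappa, was at 6.48, 3.85, 3.83, 6.33 and 13.95 TPM in C57 WT and ran from 3.42 to 5.28 in C57 Het with a median of 4.63. It was at 4.34, 6.23, 4.80, 7.32 and 6.25 TPM in Mixed WT and ran from 5.09 to 24.1 in Mixed Het with a median of 10.8. The Mixed groups overlapped, with 4 of 6 Het mice above all WT mice. The Mixed difference was 0.78 (SE 0.29, limma adjusted p = 0.0311) and the C57 difference -0.41 (SE 0.29, limma adjusted p = 0.27). The latter was -0.14 without C57 WT replicate 5 (limma adjusted p = 0.716), no lower than -0.55 in any other fit without 1 mouse, and 0.17 with the endothelial score as a covariate. The interaction was 1.19 (SE 0.40, limma adjusted p = 0.0726) and passed the threshold without C57 WT replicate 2 (1.33) or Mixed Het replicate 3 (1.37). The Mixed call rested on single mice: without Mixed Het replicate 5 it was 0.55 (limma adjusted p = 0.0868), and it also missed the threshold without Mixed WT replicate 1 or 3 or Mixed Het replicate 1 or 6. It missed it under all 3 rescalings (0.66 to 0.71). With the mesenchymal score as a covariate the Mixed difference was -0.23. Between Het mice it was higher in Mixed by 1.09 (SE 0.27, limma adjusted p = 0.00703). Its 3 nearest genes were Col1a2 (r = 0.93), a fibrillar collagen of the mesenchymal list, Bgn (r = 0.93), a matrix proteoglycan, and Cygb (r = 0.92).

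Igfbp5 (ENSMUSG00000026185), a binding protein that also adheres to matrix, was at 8.95, 9.95, 8.78, 9.16 and 10.8 TPM in C57 WT and ran from 8.14 to 12.1 in C57 Het with a median of 8.70. It was at 8.89, 13.8, 9.65, 8.33 and 13.0 TPM in Mixed WT and ran from 6.80 to 33.8 in Mixed Het with a median of 15.8. Of the 6 Mixed Het mice, 5 lay above all Mixed WT mice and 1, replicate 3, below all of them. The Mixed difference was 0.66 (SE 0.25, limma adjusted p = 0.0375) and the C57 difference -0.02 (SE 0.25, limma adjusted p = 0.969). The interaction was 0.67 (SE 0.35, limma adjusted p = 0.234), and 0.92 without Mixed Het replicate 3 (limma adjusted p = 0.0353). Without Mixed Het replicate 5 the Mixed difference was 0.47 (limma adjusted p = 0.105), without Mixed Het replicate 1 it was 0.51 (limma adjusted p = 0.0976), and it missed the threshold without Mixed WT replicate 1, 3 or 4 as well. The call was lost in 10 of 13 other settings, all 3 rescalings among them. With the mesenchymal score as a covariate it was -0.05. Between Het mice it was higher in Mixed by 0.81 (SE 0.24, limma adjusted p = 0.0194), which became 0.62 (limma adjusted p = 0.0578) without Mixed Het replicate 5 and 0.66 (limma adjusted p = 0.0526) without replicate 1. Its 3 nearest genes, Cilp (r = 0.84), Col3a1 (r = 0.84) and Col6a1 (r = 0.82), code for matrix proteins.

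Igfbp6 (ENSMUSG00000023046), which prefers IGF2, varied most between mice. It was at 2.53, 0.302, 0.521, 0.0429 and 0.973 TPM in C57 WT and ran from 0.104 to 1.80 in C57 Het with a median of 0.805. It was at 1.71, 2.88, 4.61, 1.03 and 0.397 TPM in Mixed WT and ran from 0.930 to 25.95 in Mixed Het with a median of 3.56. The genotype difference was 0.00 in C57 (SE 0.49, limma adjusted p = 0.998) and 0.95 in Mixed (SE 0.49, limma adjusted p = 0.12). The Mixed difference ran from 0.48 without Mixed Het replicate 5 (limma adjusted p = 0.331) to 1.24 without replicate 3 (limma adjusted p = 0.0374), and was -0.61 with the immune score as a covariate. The Mixed difference of Igfbp6 kept its direction in 10 of 12 other settings. Between Het mice it was higher in Mixed by 1.65 (SE 0.47, limma adjusted p = 0.0145), where 5 of 6 Mixed Het mice lay above all C57 Het mice. Closest to it were C3 (r = 0.78) and Rps12 (r = 0.75). Igfbp2 (ENSMUSG00000039323) averaged 0.0703 TPM in the WT mice and 0.0942 in the Het mice of C57, and 0.0430 and 0.0756 in those of Mixed, too low for a comparison.

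In WT mice, the background alone went with 1 called gene of the 9 (Igfbp3, lower in Mixed), beside 11.3% of all genes tested. Among Het mice, 5 of the 9 were called, all higher in Mixed (Igf1, Igfbp4, Igfbp5, Igfbp6 and Igfbp7), beside 20.5% of all genes. The count includes Igf1, which had to differ through the filter. Igf1r differed by 0.25 between the WT groups (SE 0.11, limma adjusted p = 0.161) and by 0.21 between the Het groups (SE 0.10, limma adjusted p = 0.164). The comparisons share groups of mice and are not independent of each other.

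As groups, Mixed Het had higher mean mesenchymal and immune scores than Mixed WT, and higher Igf1, Igfbp4, Igfbp5 and Igfbp7. The mice did not all follow this. Mixed Het replicate 3 had a mesenchymal score of 3.04, below the Mixed WT mean of 3.12, while every other Mixed Het mouse lay above all Mixed WT mice. In replicate 3, Igf1 and Igfbp7 were above all Mixed WT mice, Igfbp4 was within their range and Igfbp5 was below them all. The immune score of every Mixed Het mouse lay above all Mixed WT mice. Of the 12 mesenchymal markers, 11 were tested and 6 were higher in Mixed Het than in Mixed WT. All 8 tested of the 11 immune markers were higher, and 0 of the 9 tested endothelial markers were called, where 44.1% of all genes tested were called and 30.7% were higher. Markers of other cells were higher in Mixed Het too: 6 of 6 tested alpha, 3 of 3 delta, 6 of 6 ductal, 3 of 9 acinar and 3 of 5 Schwann cell markers. In C57, 5 of 9 tested endothelial, 2 of 11 mesenchymal and 2 of 8 immune markers were lower in Het, where 11.6% of all genes were lower. Higher in C57 Het were 6 of 6 tested alpha, 3 of 3 delta, 3 of 6 ductal, 9 of 9 acinar and 0 of 5 Schwann cell markers, where 26.4% of all genes were higher. Mesenchymal markers summed to 155 to 342 TPM in C57 WT, 135 to 180.3 in C57 Het, 150.3 to 223 in Mixed WT and 144 to 594 in Mixed Het. Immune markers summed to 327 to 413, 217 to 302, 199 to 272 and 307 to 610.5 TPM in the same order, and endothelial markers to 352 to 875, 339 to 412, 429.5 to 505 and 386 to 704. No marker of these 3 lists was at 0 throughout a group. Mixed Het replicate 5 had the highest mesenchymal (5.05), immune (5.25) and endothelial (5.40) scores of its group, and C57 WT replicate 5 the highest mesenchymal (4.14) and endothelial (5.95) scores of its own. With the mesenchymal score in the fit, the Mixed difference of Igf1r kept its call at -0.38 (limma adjusted p = 0.0399). That of Igf1, which had to differ through the filter, kept its call too, and those of Igfbp4, Igfbp5 and Igfbp7 did not. With the immune score in the fit, Igfbp7 was the only tested IGF gene called in Mixed. A score that itself differs between the groups takes part of the genotype difference with it, and in bulk islet RNA fewer cells of a type and less RNA per cell cannot be told apart. Within groups, the pairs of IGF genes that moved most together were Igfbp4 with Igfbp7 (r = 0.72) and Igf1 with Igfbp4 (r = 0.71), over 22 mice that share their islet preparations.

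**Figure D3:**
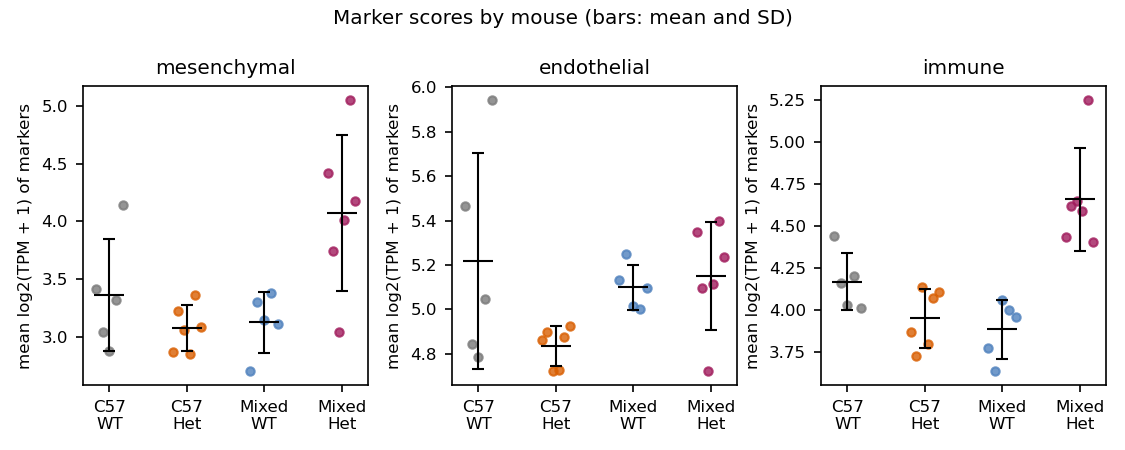
Mean log2(TPM + 1) of the mesenchymal, endothelial and immune marker lists (y axis, 1 panel each) in each mouse by group (x axis), with the mean and SD as bars. The mean mesenchymal score was 4.07 in Mixed Het against 3.12 in Mixed WT, and the immune score 4.66 against 3.88.

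Among the carriers of IGFs and the proteins that cut binding proteins, 7 of 10 genes were tested; 2 were higher in C57 Het and 4 in Mixed Het, with none lower and none called in the interaction. Over all genes tested, 26.4% were higher and 11.6% lower in C57, and 30.7% and 13.5% in Mixed, with 7.36% called in the interaction; these shares are the background of the lists that follow. Pappa2, the pappalysin that cuts IGFBP3 and IGFBP5, rose most. It was at 68.1, 64.9, 61.1, 52.8 and 19.99 TPM in C57 WT and 136 to 179 in C57 Het, and at 55.6, 43.3, 23.0, 50.3 and 34.3 in Mixed WT and 117 to 378 in Mixed Het, with the groups separate on both backgrounds. The differences were 1.68 in C57 (SE 0.30, limma adjusted p = 0.000192) and 2.58 in Mixed (SE 0.30, limma adjusted p = 6.25e-07), and their difference of 0.90 was not called (limma adjusted p = 0.176). Adam9, a membrane protease, was higher in C57 Het (0.61, limma adjusted p = 0.000108). In Mixed, Htra1, a secreted protease, was higher by 0.79 and Stc2, an inhibitor of pappalysins, by 0.75. Stc2 and Adam12 passed the filter mainly through Mixed Het, so the filter has a part in these calls. Adam12 was higher by 0.30 in Mixed, a call lost in 9 of 12 other settings and in 7 of 22 fits without 1 mouse, and Htra1, Stc2 and Adam12 all lost theirs with the mesenchymal or the immune score as a covariate.

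Other secreted proteins with an IGF-binding domain gave 1 higher and 3 lower in C57, and 1 higher and 1 lower in Mixed, of 7 tested out of 10, beside 38.0% and 44.1% of all genes called. The 1 higher on each background is Igfbpl1. It passed the filter only through Het mice, and both counts include it. Igfbpl1, an IGF binding protein-like gene, was listed at 0 in 4 of 5 C57 WT mice and at 0.0147 TPM in the other, and ran from 0.729 to 2.13 in C57 Het. In Mixed WT no mouse exceeded 0.0244 TPM, and Mixed Het ran from 2.26 to 10.4. Igfbpl1 passed the filter only through Het mice, and the Mixed Het mice were enough, so its Mixed difference had to appear. The filter did not require the C57 difference. Both are given by their size alone, 1.31 in C57 and 2.80 in Mixed. The interaction was 1.49 and is also given by its size alone, since the Mixed Het mice were enough to carry the gene through the filter. Esm1, the proteoglycan endocan of endothelial cells, fell from 157 ± 39.2 TPM (SD, n = 5) to 75.4 ± 18.1 (n = 6) in C57 and from 95.03 ± 25.0 (n = 5) to 54.6 ± 22.1 (n = 6) in Mixed. These were differences of -1.06 (limma adjusted p = 0.00435) and -0.87 (limma adjusted p = 0.0127), and the Mixed value was -0.04 with the immune score as a covariate. Ccn2 (-0.87) and Kazald1 (-0.32) were lower in C57 Het, with limma adjusted p of 0.026 and 0.0384, and lost these calls in 6 and 7 of 13 other settings and in 3 and 7 of 22 fits without 1 mouse.

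Of the 4 other receptors, 2 were higher and 1 lower with the allele on each background, beside the same 38.0% and 44.1% of all genes. Insrr, the insulin receptor-related receptor, an alkali-sensing kinase of the same family as Igf1r, was at 733, 413, 466, 618 and 426 TPM in C57 WT and 245 to 356 in C57 Het. It was at 493, 536, 510.1, 657 and 488 TPM in Mixed WT and 143 to 269 in Mixed Het, and the groups were separate on both backgrounds. It fell by 0.77 in C57 and by 1.59 in Mixed on the log2 scale (SE 0.16 each, limma adjusted p = 0.000678 and 8.82e-08), with an interaction of -0.81 (limma adjusted p = 0.0292). The interaction lost its call in 5 of 12 other settings and without C57 WT replicate 5, C57 Het replicate 4 or 5, Mixed WT replicate 4 or Mixed Het replicate 5 (-0.79 to -0.74). The beta cell marker sums given beside Igf1r, mostly insulin transcripts, were also lower in Mixed Het than in Mixed WT. The part of these markers in the fall of Insrr was not tested. Lrp1, an endocytic receptor that takes up many ligands, rose by 0.65 and 1.10, and Igf2r, which clears IGF2, by 0.60 and 0.50. The insulin receptor gene Insr had differences of 0.24 (limma adjusted p = 0.0883) and -0.06 (limma adjusted p = 0.663).

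**Figure D4:**
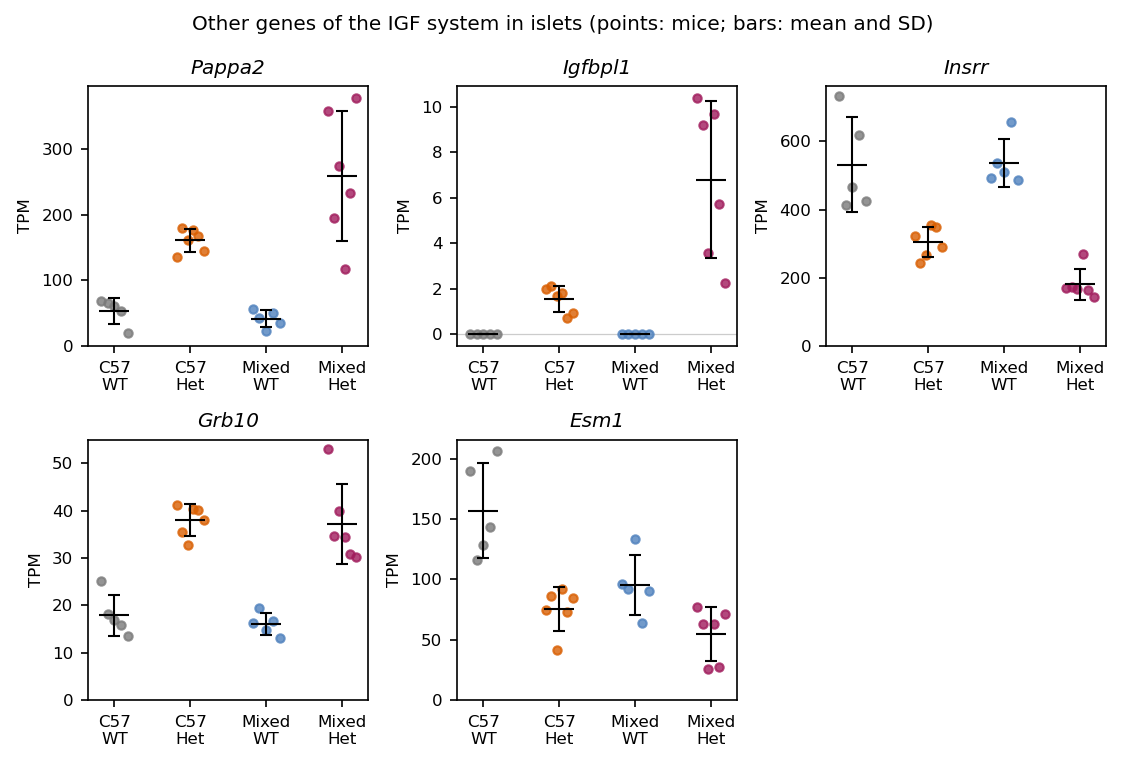
TPM of 5 further genes of the IGF system (y axis, linear, 1 panel per gene with its own scale) in each of the 22 mice by group (x axis), with the mean and SD as bars. Het mice are separate from WT mice of their background for Pappa2, Igfbpl1, Insrr and Grb10. The 5 genes were picked from those called with genotype, and Igfbpl1 passed the filter only through Het mice.

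Downstream of the receptor, 22 of 24 signalling genes were tested; 14 were higher and 1 lower in C57 Het, and 4 higher and 6 lower in Mixed Het. Of all genes 26.4% were higher and 11.6% lower in C57 and 30.7% and 13.5% in Mixed, a balance that evens out when scaled by median of ratios. Grb10, an adaptor that restrains insulin and IGF1 receptors, rose on both backgrounds. Its means went from 17.9 ± 4.38 TPM (SD, n = 5) to 38.0 ± 3.30 (n = 6) in C57, by 1.07 (SE 0.14, limma adjusted p = 7.38e-06), and from 16.0 ± 2.34 (n = 5) to 37.1 ± 8.48 (n = 6) in Mixed, by 1.15 (SE 0.14, limma adjusted p = 1.29e-06). The kinase genes Mtor (0.49) and Gsk3b (0.48) were also higher in C57 Het. In Mixed the regulatory subunits of phosphatidylinositol 3-kinase, Pik3r2 (-0.61) and Pik3r1 (-0.46), and the mTOR inhibitor Tsc1 (-0.37) were lower. Pik3r2 kept this call in all 13 other settings, while Pik3r1 lost it in 2 of 13 and Tsc1 in 3 of 13. All of these genes kept it in the 22 fits without 1 mouse. The interaction was called for Shc1 (-0.60, limma adjusted p = 0.0151), an adaptor, and Akt1 (-0.34, limma adjusted p = 0.0218), a kinase, both higher with the allele in C57 (0.28 and 0.37). In Mixed the difference was -0.33 for Shc1 (limma adjusted p = 0.0113) and 0.03 for Akt1 (limma adjusted p = 0.726). The Shc1 call in C57 was lost in 10 of 13 other settings, from 0.16 under median of ratios, and in 6 of 22 fits without 1 mouse, which left out C57 WT replicate 1, 3 or 5 or C57 Het replicate 2, 4 or 5. Of the 6 genes of the Igf2 locus and of IGF2 mRNA binding, 2 were tested and none was called: limma gave Mir483, whose hairpin lies inside the Igf2 gene, -1.14 in Mixed (adjusted p = 0.102) and Igf2bp2 0.19 (adjusted p = 0.266).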

How the data were processed

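Islet RNA of 22 male mice (1 mouse per library) was measured by sequencing of poly(A) RNA, per the labels' protocols. The authors deposited 1 table of TPM with 57010 gene rows and 22 value columns, each summing to 1000000. Sequencing depth cannot be read from TPM, and no interval or floor that needs it was computed; the number of mice sets the precision. The submitters' processing notes name STAR 2.7.10b, MultiQC 1.7 and the mm39 build, with no roles; the counting tool and annotation are not given in the sources used here.

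Groups came from the genotype labels. Replicate numbers follow accession order and pair nothing. Library numbers follow the groups, so library order and group cannot be told apart. The column names give the age as a range around the stated 5.5 weeks. Values were log2(TPM + 1), and rows with at least 1 TPM in at least 5 samples were kept (16756). limma 3.58.1 in R 4.3.3 fitted the 4 group means (lmFit, eBayes with trend) and 5 contrasts, with Benjamini-Hochberg adjustment over all rows tested. The fit was tested on simulated data. Symbols occurring more than once (147) were named by the row of highest mean TPM.

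The 9 members and the lists were chosen with earlier results of these data known. Named genes are all 9 members, Mafa, up to 4 called genes of each pathway list and genotype contrast with the largest difference, list genes at 0, and for each member the 3 genes (mean TPM of at least 5) of highest group-centred Pearson correlation; some genes that this rule takes are not reported here. Gm49394, Insr, Igf2bp2 and Mir483 were named after their values were seen. A marker score is the mean log2(TPM + 1) of a list's tested genes. Alternatives were a pseudocount of 0.1, no filter, a mean TPM of at least 5, 3 rescalings (median of ratios, quantile, a total without the 13 genes over 1% of a sample), samples of the contrast alone, 4 marker scores as covariates, sample weights, an adjusted p under 0.01 for counts, each mouse left out, and, chosen after seeing the data, C57 WT replicate 5 and Mixed Het replicate 5 left out together. Promoter windows came from RefSeq on GRCm38.p6, and no coordinates were assigned to the values.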

Additional observations from a re-analysis of the deposited data

Results flagged for a closer look

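In 5 of 36 gene and group sets of the 9 IGF genes, the highest mouse stood apart from the rest of its group. The limit used is passed by about 1 set in 20 where values are normal and sets independent. TPM need not be normal and these sets share mice, so that rate may not hold here. These were Igf1 in Mixed Het replicate 5 (3.60 TPM), Igf1r in Mixed Het replicate 1 (15.5 TPM), Igfbp4 in C57 WT replicate 5 (13.95 TPM), Igfbp6 in Mixed Het replicate 5 (25.95 TPM) and Igfbp7 in C57 WT replicate 5 (795 TPM). Mixed Het replicate 5 and C57 WT replicate 5 also had the highest mesenchymal and endothelial scores of their groups. With both left out, limma gave Mixed genotype differences of 0.57 for Igfbp7, 0.55 for Igfbp4 and 0.47 for Igfbp5, the last no longer called (adjusted p = 0.106).

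The genotype difference was itself called as different between the backgrounds for 5 genes by the limma interaction. It was 0.68 for Igfbp7 (adjusted p = 0.0367), -0.81 for Insrr (adjusted p = 0.0292), -0.60 for Shc1 (adjusted p = 0.0151) and -0.34 for Akt1 (adjusted p = 0.0218). For Igfbpl1 it was 1.49, given by its size alone. That gene passed the filter only through Het mice, and the Mixed Het mice were enough for it, so the filter has a part in its call. With the mesenchymal, the endothelial or the immune score as a covariate none of the 5 kept this call. The interaction calls over all genes fell as well, from 1233 to as few as 3 with the immune score, and the counts are given further below. The loss is thus not particular to these genes, and the part of those cells in it was not tested.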

How the results depend on the processing

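No paired analysis was possible because the replicate numbers only name mice and pair nothing. Of 3380 values of single genes under other settings, 3148 kept their side of the threshold, 187 dropped below it, 42 passed it and 3 called values reversed. Of the 3148, 103 changed sign, none of them called. The 3 were Igfbp4 (-0.23), Igfbp5 (-0.051) and Htra1 (-0.00204) in Mixed with the mesenchymal score as a covariate. Of 358 counts, 275 stayed within 1.5 times; the cause of the others was not tested unless the setting uses fewer genes, fewer samples or a stricter threshold.

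IGF genes called in C57 were 2 under each rescaling and with the acinar score, and 1 to 2 with 1 mouse left out. In Mixed they were 3 under each rescaling, with no filter, with the acinar score and at an adjusted p under 0.01, 2 with the mesenchymal and 1 with the immune score, and 3 to 6 with 1 mouse left out. For the interaction they were 0 with no filter, with the mesenchymal, immune or endothelial score, at 0.01 and with the 2 libraries left out, 2 under quantile normalization or sample weights, and 0 to 4 with 1 mouse left out. For Mixed against C57 in WT they were 0 with no filter, in the contrast's samples alone, with the immune score, with sample weights, at 0.01 and with the 2 libraries left out, and 0 to 1 with 1 mouse left out. For Mixed against C57 in Het they were 0 with the mesenchymal or immune score, 2 with the endothelial score and at 0.01, 3 at a mean TPM of at least 5, and 3 to 5 with 1 mouse left out.

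All genes called in C57 numbered 3193 with the acinar and 4102 with the endothelial score and 4002 at 0.01, and in Mixed 3664 with the immune score. For the interaction they were 3, 27 and 286 with the immune, mesenchymal and endothelial scores, 245 at 0.01, 714 with no filter, 2628 with sample weights, 495 without the 2 libraries, and 771 (without Mixed Het replicate 5) to 1775 (without C57 WT replicate 2) with 1 mouse left out. For Mixed against C57 they were, in WT, 811 at 0.01, 1200 with the immune score, 1251 at a mean TPM of at least 5 and 831 in the contrast's samples alone. In Het they were 1761 at 0.01, 2128, 318 and 633 with the endothelial, immune and mesenchymal scores, 2223 at a mean TPM of at least 5 and 6572 with sample weights.

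Depth is unknown from TPM, so Igf1, Igf2, Igfbp2 and Igfbp6 at or near 1 TPM have an unknown counting error.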

Other observations

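Several genes of the IGF system were listed at 0 in some mice and were too low for a test. Igfbp1, the binding protein that insulin represses in liver, was at 0 in 3 of 5 C57 WT, 2 of 6 C57 Het, 4 of 5 Mixed WT and 0 of 6 Mixed Het mice, with means of 0.0263, 0.0930, 0.00819 and 0.136 TPM. The matricellular gene Ccn5 averaged 0.0684, 0.0293, 0.101 and 0.434 TPM in the same order, and the insulin receptor substrate Irs3 0.0499, 0.142, 0.192 and 0.268 TPM. The imprinted transcript H19 stayed at 0.171 TPM or less on average in every group, and the protease Adam28 at 0.00824 TPM or less.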
